A study of Mus musculus with 6 samples.

Results

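Chemokines are small secreted or membrane-bound proteins that steer leukocytes towards a tissue, and 10 of their genes are described here in Paneth cells (PCs), the antimicrobial peptide-producing epithelial cells of the small intestinal crypt. The 10 genes were Cxcl16, Cxcl10, Cxcl9, Cxcl1, Cxcl2, Cxcl5, Ccl20, Ccl25, Ccl28 and Cx3cl1, found by their Ensembl identifiers among the 55414 genes of the count table. They were read in all 6 libraries and compared with 28 other chemokine ligands and 23 chemokine receptors.

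The question was what TNF does to the transcriptome of PCs in mice that lack Ifnar1, a receptor subunit for type I interferons. All 6 mice were C57BL/6J and labelled IFNAR1 KO, so the controls carried the same deletion as the treated mice. The 3 PBS mice and the 3 TNF mice were sampled 15 h after the injection, and PCs purified with a cell sorter from the small intestine of each mouse gave 1 library per mouse. The sources used here do not give the dose, the route of injection, the sorting gate or the age and sex of these mice.

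Chemokines of the intestinal epithelium fall into groups by the receptor they bind. CCL25, the ligand of CCR9, and CCL28, the ligand of CCR10 and CCR3, are made by resting epithelium and draw T cells and IgA-secreting plasma cells to the mucosa. CXCL1, CXCL2 and CXCL5 bind CXCR2 and draw neutrophils, CXCL9 and CXCL10 bind CXCR3 and draw activated T cells, and CCL20 binds CCR6 on lymphocytes and dendritic cells. CXCL16 and CX3CL1 are made as membrane proteins that can tether cells bearing CXCR6 or CX3CR1 and are released by the protease ADAM10. Several of these genes are textbook targets of NF-kB, the transcription factor activated by TNF, and Cxcl9 and Cxcl10 are textbook targets of interferon-gamma.

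Library totals lay between 12747484 and 17039511 counts, and the level of a gene is given as CPM (counts scaled to a common library total) after trimmed mean of M-values (TMM) scaling. At these depths 3 counts, taken as the limit that a count of 0 allows, correspond to 0.146 to 0.255 CPM. The targeted gene Ifnar1 was counted at 5.18 to 12.7 CPM in all libraries, and with no wild-type library this level checks nothing about the deletion. The 10 PC markers examined, among them the lysozyme gene Lyz1, summed to 354563 to 436723 CPM in PBS and 266674 to 566654 CPM in TNF. That sum was mostly Lyz1 and Defa24, so it says little about the other PC markers. Of the 10, 5 had a positive and 5 a negative log2 fold change. In TNF replicates 1 to 3, Clps was at 2169, 259 and 466 CPM, against 1229 to 2338 in PBS. Mptx2 was at 36398, 3950 and 11381 CPM, against 17731 to 21214 in PBS, and Nupr1 at 156, 973 and 923 CPM, against 188 to 288. Of 18 immune cell markers 5 were at 0 in all libraries (among them Nkg7, Cx3cr1 and Csf3r), and the list summed to 21.7 to 53.6 CPM in PBS and 35.9 to 43.9 CPM in TNF. Of 12 endothelial and stromal markers 4 were at 0 in all libraries, and the list summed to at most 4.11 CPM in PBS and 5.03 CPM in TNF.

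The library labelled TNF replicate 1 stood apart from the other TNF libraries. Across the 13026 tested genes, which are not independent replicates, its log2 CPM correlated at 0.937 to 0.945 with the PBS libraries and at 0.883 to 0.884 with TNF replicates 2 and 3, which correlated with each other at 0.954. It was kept in its labelled group. Each result that rests on it is also given without it, and since it was singled out on these same data, the adjusted p-values without it are descriptive.

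Of the tested chemokines, the one with the largest ratio between the groups was Cxcl16 (ENSMUSG00000018920, GRCm39 chr11:70344517-70352620, minus strand). It had 18, 18 and 11 counts in PBS replicates 1 to 3 and 45, 1152 and 919 counts in TNF replicates 1 to 3. On the CPM scale these were 1.30, 1.20 and 0.807 in PBS, and 3.82, 56.2 and 73.9 in TNF. All 3 TNF libraries lay above all 3 PBS libraries, but TNF replicate 1 was much closer to PBS than to the other TNF libraries. The group levels were 1.10 ± 0.259 CPM (SD, n = 3) in PBS and 44.6 ± 36.4 CPM (SD, n = 3) in TNF, a ratio of 40.6. In the edgeR fit the log2 ratio of TNF to PBS was 5.33 with a standard error (SE) of 0.93 and an adjusted p of 0.270, which did not pass the threshold of 5%. With TNF replicate 1 left out it was 5.89 (SE 0.27, edgeR adjusted p 7.72e-07). The log2 fold change was positive in 16 of 16 fits, from 4.56 to 5.89, and the adjusted p over the alternatives spanned 5.79e-37 to 0.854. The lowest of these came from edgeR with no low-count filter. That fit gave an SE of 0.37 on the same libraries, against 0.93 with the filter, so its p-value depends on the filter. With limma-voom the log2 fold change was 4.56 (SE 2.20), with an unadjusted limma-voom p of 0.0665. In bulk RNA of this kind, a different number of cells of a type and a different amount of RNA per cell cannot be told apart.

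Reads of Cxcl16 could not be separated from those of its neighbours by strand, since the use of strand in counting is not stated. Med11, a Mediator subunit gene, and Zmynd15 overlap it on the opposite strand, with 1174 and 20 counts over all libraries. Cxcl16 had 47 counts summed over the PBS libraries and 2116 over the TNF libraries. The part of these neighbours in the counts of Cxcl16, also where these were low, was not tested.

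Ccl20 (ENSMUSG00000026166, chr1:83094487-83096888, plus strand), the ligand of CCR6, was the other tested chemokine that was higher in every TNF library than in every PBS library. It had 12, 10 and 1 counts in PBS and 20, 117 and 161 counts in TNF, or 0.864, 0.666 and 0.0733 CPM against 1.70, 5.71 and 12.9 CPM. TNF replicate 1 was again the lowest of its group. The mean CPM was 0.535 ± 0.412 for PBS and 6.78 ± 5.70 for TNF (SD, n = 3 each), a ratio of 12.7. The edgeR fit gave a log2 fold change of 3.64 and an SE of 0.89 (adjusted p 0.270), and without TNF replicate 1 it was 4.11 (SE 0.67, edgeR adjusted p 0.00218). It was 2.79 without TNF replicate 3 (edgeR adjusted p 0.897), positive in 15 of 15 fits from 2.79 to 4.88, with adjusted p-values of 2.73e-06 to 0.897 over the alternatives.

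**Figure D1:**
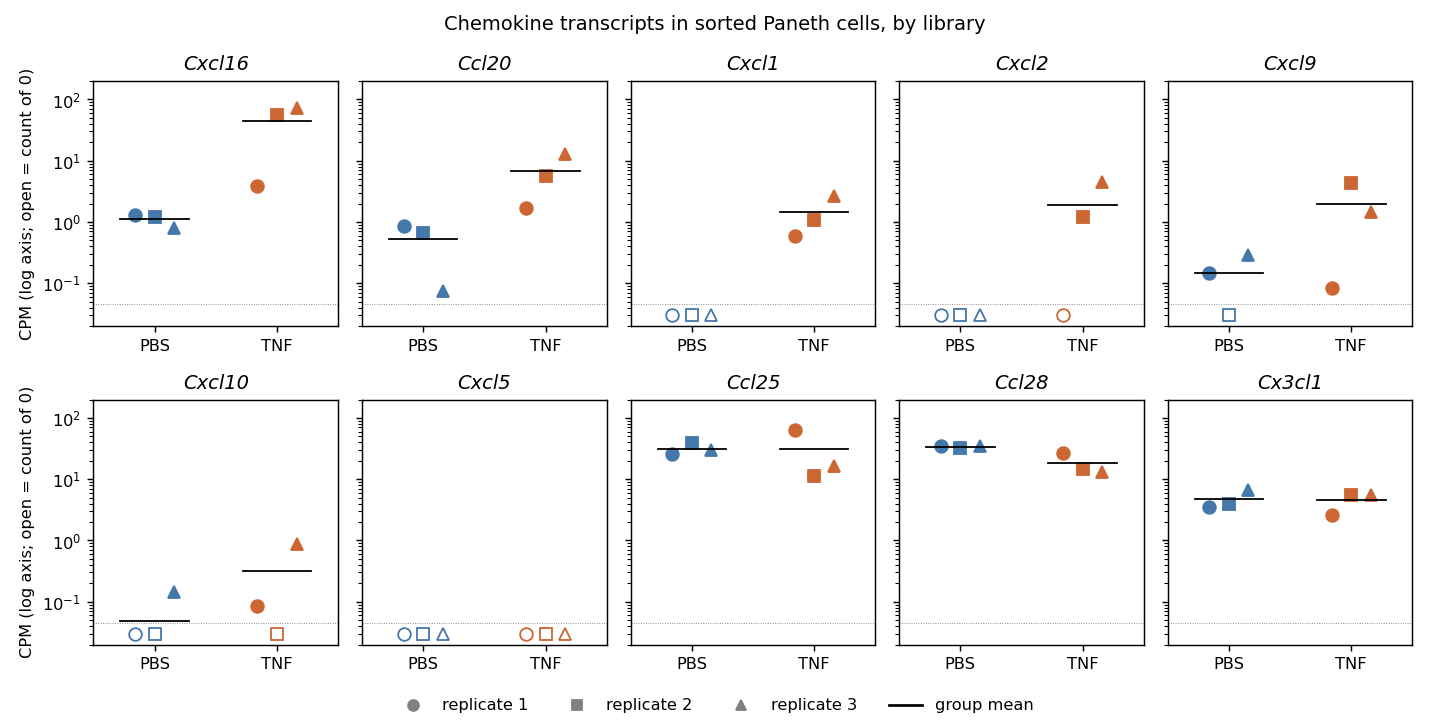
CPM of the 10 chemokine genes in each library on a log axis, with PBS in blue, TNF in orange, 1 symbol per replicate number and a line at each group mean. Open symbols under the dotted line are counts of 0. Cxcl16 and Ccl20 have all 3 TNF libraries above all PBS libraries, Ccl28 has them below, and the TNF circle (replicate 1) lies nearest to PBS for Cxcl16.

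The neutrophil attractants Cxcl1 and Cxcl2 were at 0 in PBS and appeared in TNF libraries. Cxcl1 (ENSMUSG00000029380, chr5:91039094-91040974, plus strand) had 0 counts in each PBS library and 7, 22 and 33 counts in TNF, which is 0.594, 1.07 and 2.65 CPM. Cxcl2 (ENSMUSG00000058427, chr5:91051730-91053797, plus strand) also had 0 counts in each PBS library and had 0, 25 and 55 counts in TNF, which is 0, 1.22 and 4.42 CPM. Cxcl1 was thus seen in all TNF libraries and Cxcl2 in TNF replicates 2 and 3 only. Against a floor of 3 counts per PBS library, mean CPM in TNF was at least 6.79-fold higher for Cxcl1 and at least 8.87-fold higher for Cxcl2. Both bounds rested largely on TNF replicate 3, without which they were 3.93 and 2.88. The bound of Cxcl2 was 13.3 without TNF replicate 1. Both genes had too few counts in too few libraries for the edgeR test. A two-sided exact permutation test of mean CPM gave p = 0.1 for Cxcl1, the smallest value that 3 against 3 libraries allow, and p = 0.4 for Cxcl2 (0.4 and 0.533 after adjustment over 4 genes). In fits with 1 library left out, both genes could pass the filter through TNF libraries only, so those p-values are not used here. With no low-count filter and all 6 libraries, the edgeR adjusted p was 0.00217 for Cxcl1 and 2.42e-04 for Cxcl2, unlike the exact tests above. The third CXCR2 ligand, Cxcl5 (ENSMUSG00000029371, chr5:90907186-90909483, plus strand), had 0 counts in all 6 libraries. Cxcl1 and Cxcl2 are related genes, and how reads shared between them were counted is not stated.

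Cxcl9 and Cxcl10, the CXCR3 ligands, were near the limit of detection in PBS. Cxcl9 (ENSMUSG00000029417, chr5:92469206-92475945, minus strand) had 2, 0 and 4 counts in PBS and 1, 90 and 18 counts in TNF. TNF replicate 1 was within the PBS range and TNF replicate 2 was the highest, a different order from Cxcl1, Cxcl2 and Ccl20, which were highest in TNF replicate 3. Mean CPM of Cxcl9 was 0.146 ± 0.147 for PBS and 1.97 ± 2.20 for TNF (SD, n = 3; exact permutation p = 0.3, adjusted 0.533), and the ratio of pooled counts was 17.3 with a 95% counting interval of 7.69 to 48.1. This ratio rested on TNF replicate 2, without which it was 5.56 (interval 2.13 to 17.01). In fits with 1 library left out, Cxcl9 could pass the filter through TNF libraries only, and those p-values are not used for it. With no low-count filter and all 6 libraries its edgeR adjusted p was 0.0246, unlike the exact test above. Cxcl10 (ENSMUSG00000034855, chr5:92494497-92496748, minus strand) had 0, 0 and 2 counts in PBS and 1, 0 and 11 counts in TNF. Its ratio of pooled counts was 5.71 with an interval of 1.27 to 52.5, but 0.659 (0.0112 to 12.7) without TNF replicate 3 and 10.5 (2.35 to 96.9) without TNF replicate 2. The exact permutation p was 0.7 (adjusted 0.700), and a difference between the groups was not detectable at this depth. Such intervals cover counting error only.

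In the same libraries the summed immune cell markers overlapped between the groups, as given above. That sum was mostly Lyz2 and Ptprc, so it says little about the other markers. Lyz2 was at 15.9 to 19.0 CPM in PBS and 13.1 to 27.6 CPM in TNF. Ptprc was at 3.89 to 33.8 CPM in PBS and 8.84 to 22.7 CPM in TNF. Of the neutrophil markers, Csf3r had 0 counts in all libraries, while S100a9, S100a8 and Ly6g had 0 counts in PBS and in TNF replicate 1. In TNF replicates 2 and 3 these had 26 and 13 counts for S100a9, 2 and 4 for S100a8, and 27 and 0 for Ly6g. Cxcl1 had 22 and 33 counts and Cxcl2 had 25 and 55 counts in the same libraries. In TNF replicate 1, Cxcl1 had 7 counts and Cxcl2 had 0. Tyrobp, of myeloid cells, had at most 1 count in any library, and Ptprc, the pan-leukocyte gene, had 54 to 461 counts in PBS and 110 to 465 counts in TNF. The part of non-PC RNA in the low counts of Cxcl1, Cxcl2, Cxcl9 and Cxcl10 was not tested.

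The genomic sequence before the start sites of the genes with a match to the kB motif, the DNA element bound by NF-kB, is shown because Cxcl1, Cxcl2 and Ccl20 were among the chemokines higher in TNF and Cxcl5, with the same element, was not detected. The window searched ran from 250 bases before to 50 bases after the start of the representative transcript in GRCm39, on both strands. Each sequence below is the stretch before the start site, 5′ to 3′ on the strand of the gene, with kB matches in capitals and, in Cxcl10, also the match to the interferon-stimulated response element (ISRE), which is the first run of capitals. The Cxcl5 stretch stops where another of its transcripts begins. Coordinates are chr5:91038844-91039093 for Cxcl1, chr5:91051480-91051729 for Cxcl2, chr5:90906987-90907185 for Cxcl5, and chr1:83094237-83094486 for Ccl20, all on the plus strand, and chr5:92496749-92496998 on the minus strand for Cxcl10.
Cxcl1: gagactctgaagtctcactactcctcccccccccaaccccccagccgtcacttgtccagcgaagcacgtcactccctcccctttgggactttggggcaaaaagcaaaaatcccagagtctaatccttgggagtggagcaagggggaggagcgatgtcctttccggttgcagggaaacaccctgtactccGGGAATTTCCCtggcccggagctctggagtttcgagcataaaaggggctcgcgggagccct
Cxcl2: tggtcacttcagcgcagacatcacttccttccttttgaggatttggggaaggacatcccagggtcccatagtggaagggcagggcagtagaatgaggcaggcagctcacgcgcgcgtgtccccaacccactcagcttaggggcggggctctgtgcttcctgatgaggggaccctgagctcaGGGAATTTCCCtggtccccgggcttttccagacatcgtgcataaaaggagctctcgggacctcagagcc
Cxcl5: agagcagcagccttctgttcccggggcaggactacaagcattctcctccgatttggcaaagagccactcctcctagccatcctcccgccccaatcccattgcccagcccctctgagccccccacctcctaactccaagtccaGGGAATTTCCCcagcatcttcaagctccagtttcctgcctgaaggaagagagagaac
Ccl20: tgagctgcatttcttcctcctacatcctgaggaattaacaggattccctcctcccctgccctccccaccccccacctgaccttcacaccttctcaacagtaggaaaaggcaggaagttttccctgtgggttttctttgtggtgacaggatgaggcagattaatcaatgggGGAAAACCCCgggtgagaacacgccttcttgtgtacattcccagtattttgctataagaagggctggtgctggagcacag
Cxcl10: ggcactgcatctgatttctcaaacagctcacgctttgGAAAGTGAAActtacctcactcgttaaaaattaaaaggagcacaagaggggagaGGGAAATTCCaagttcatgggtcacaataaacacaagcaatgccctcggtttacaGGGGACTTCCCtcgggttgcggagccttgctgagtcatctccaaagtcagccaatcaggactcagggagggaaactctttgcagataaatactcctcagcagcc

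The 3 CXCR2 ligands carried the same 11 bases GGGAATTTCCC, in which 1 kB match on each strand overlapped, at -61, -69 and -108 from the start of Cxcl1, Cxcl2 and Cxcl5. The kB match of Ccl20 read GGAAAACCCC and began at -80. Cxcl10 had an ISRE match at -213 and kB matches at -159, -104 and -103, of which the latter pair overlapped. In all, 5 of the 10 chemokine promoters held a kB match, against 8.97% of 21770 protein-coding promoters of the same length, and 1 of 10 held an ISRE match, against 3.84%. The TATA box letters TATAAA matched 1 promoter, that of Cxcl9, against 13.2% of all. Cxcl16, with the highest ratio among the tested chemokines, had none of these letters in its window, nor had Ccl25, Ccl28 and Cx3cl1. For Cxcl16 and Ccl25 the representative transcript starts inside the annotated gene. Their start sites are 70350810 (minus-strand gene ending at 70352620) and 4375198 (plus-strand gene beginning at 4374661). The outermost annotated starts of Cxcl16 and Ccl25 lay outside the windows and were not searched. Letters of a motif are a description of the sequence and no evidence of binding.

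**Figure D2:**
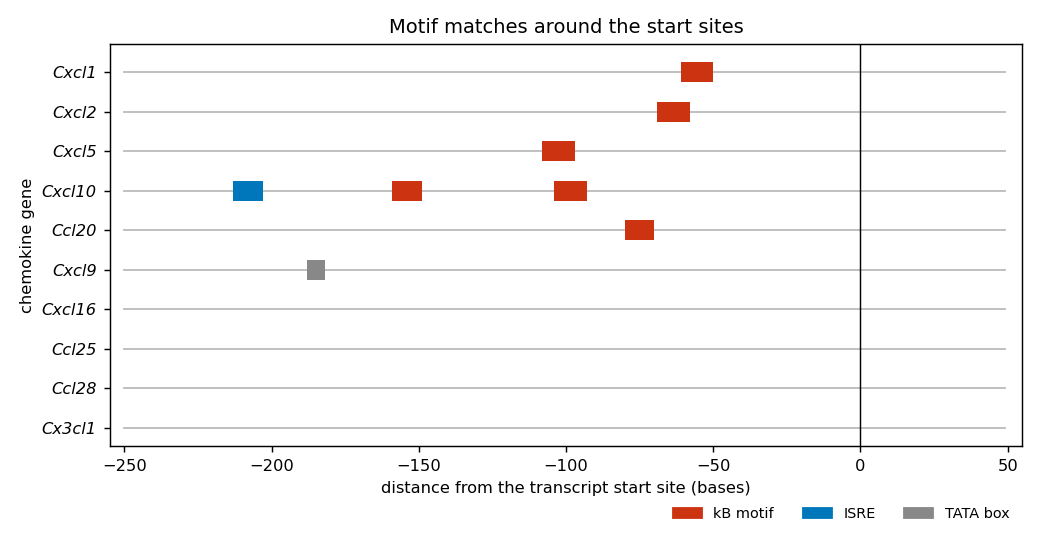
Position of motif matches in the windows around the start sites of the 10 chemokine genes, in bases from the start site of the representative transcript (0 on the horizontal axis). Red marks the kB motif, blue the ISRE and grey the TATA box. The kB matches of Cxcl1, Cxcl2, Cxcl5, Cxcl10 and Ccl20 all lie between -159 and -51, and the lower 4 genes have no match.

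The homeostatic chemokines Ccl28 and Ccl25 did not follow this direction. Ccl28 (ENSMUSG00000074715, chr13:120085355-120115895, plus strand), which draws IgA plasma cells, had 483, 494 and 471 counts in PBS and 316, 298 and 166 counts in TNF. Its CPM was 34.8, 32.9 and 34.5 in PBS and 26.8, 14.5 and 13.3 in TNF, so that every TNF library was below every PBS library. Mean CPM was 34.1 ± 1.03 for PBS and 18.2 ± 7.46 for TNF (SD, n = 3), a ratio of 0.535. The edgeR estimate on the log2 scale was -0.90 with an SE of 0.28 (adjusted p 0.297), and without TNF replicate 1 it was -1.27 (SE 0.20, edgeR adjusted p 0.00204). It was negative in 16 of 16 fits, from -1.27 to -0.72, with adjusted p-values of 0.00204 to 0.897 over the alternatives.

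Ccl25 (ENSMUSG00000023235, chr8:4374661-4540760, plus strand), the small intestinal T cell attractant, had 360, 581 and 410 counts in PBS and 762, 229 and 205 counts in TNF. On the CPM scale it was at 25.9, 38.7 and 30.1 in PBS and at 64.7, 11.2 and 16.5 in TNF. TNF replicate 1 was the highest of all libraries and TNF replicates 2 and 3 were the lowest. The means of 31.6 ± 6.51 and 30.8 ± 29.5 CPM (SD, n = 3) differed by less than the spread, and the edgeR log2 fold change was -0.04 with an SE of 0.56 (adjusted p 0.981). It was -1.18 without TNF replicate 1 (SE 0.26, edgeR adjusted p 0.0116). It turned positive when PBS replicate 2 (0.13) or either of TNF replicates 2 (0.33) and 3 (0.26) was left out, with adjusted p-values of 0.0116 to 0.986 over the alternatives. Elavl1, an RNA-binding protein gene with 3810 counts, overlaps Ccl25 on the opposite strand.

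Markers of some other epithelial cells also differed between libraries. The 8 stem and progenitor markers, all detected, summed to 2310 to 2904 CPM in PBS, and to 4340, 465 and 498 CPM in TNF replicates 1 to 3. The 11 enterocyte markers, all detected, summed to 318 to 367 CPM in PBS, against 271, 119 and 89.9 CPM in TNF replicates 1 to 3. The 8 goblet cell markers, all detected, summed to 12379 to 13645 CPM in PBS, against 15799, 7898 and 12043 CPM in TNF. The 11 tuft and enteroendocrine markers, all detected, overlapped between the groups, at 379 to 1310 CPM in PBS and 494 to 770 CPM in TNF. The part of these cells in the levels of Ccl25 and Ccl28 was not tested.

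Cx3cl1 (ENSMUSG00000031778, chr8:95498637-95509055, plus strand), the other membrane-bound chemokine, had 48, 60 and 92 counts in PBS and 31, 115 and 68 counts in TNF. The corresponding levels of 3.46, 3.996 and 6.75 CPM and 2.63, 5.61 and 5.47 CPM overlapped. Mean CPM was 4.73 ± 1.76 for PBS and 4.57 ± 1.68 for TNF (SD, n = 3). On the log2 scale the edgeR difference was -0.04 with an SE of 0.44 (adjusted p 0.975), and it was 0.25 (edgeR adjusted p 0.738) without TNF replicate 1. Cx3cl1 and Cxcl16 thus had different fold changes in these libraries, although the difference between them was not tested.

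Of the 10 genes, 5 had enough counts in 3 libraries to be tested (Cxcl16, Ccl20, Ccl25, Ccl28 and Cx3cl1). None of the 5 passed 5% with edgeR, against 0.0% of 13026 genes. At an unadjusted edgeR p under 0.05 there were 3 of 5, against 12.3% of all genes, of which Cxcl16 and Ccl20 were higher (8.25% of all genes were) and Ccl28 was lower (4.0%). Groups did not overlap for the same 3 genes, against 16.9% of all genes (9.07% higher and 7.82% lower). With TNF replicate 1 left out, 4 of these 5 genes passed 5%, against 14.5% of 13660 genes. Cxcl16 and Ccl20 were the higher ones (9.1% of all genes), and Ccl25 and Ccl28 the lower ones (5.4%). Cxcl1, Cxcl2 and Cxcl9 also passed 5% in that fit, but they had entered it only through the libraries in which they were high, so that their calls say little beyond the filter. DESeq2 with all 6 libraries called Cxcl16 and Ccl20 (adjusted p 3.03e-04 and 0.00205), against 1.86% of all genes (1.58% higher), and limma-voom with sample weights called these and Ccl28, where 11.5% of all genes passed (7.06% higher and 4.47% lower). With no low-count filter, edgeR called 6 (Cxcl16, Ccl20, Cxcl1, Cxcl2, Cxcl9 and Ccl28), against 2.94% of all genes (2.1% higher and 0.849% lower). In that fit the SE of Cxcl16 was 0.37, against 0.93 with the filter.

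**Figure D3:**
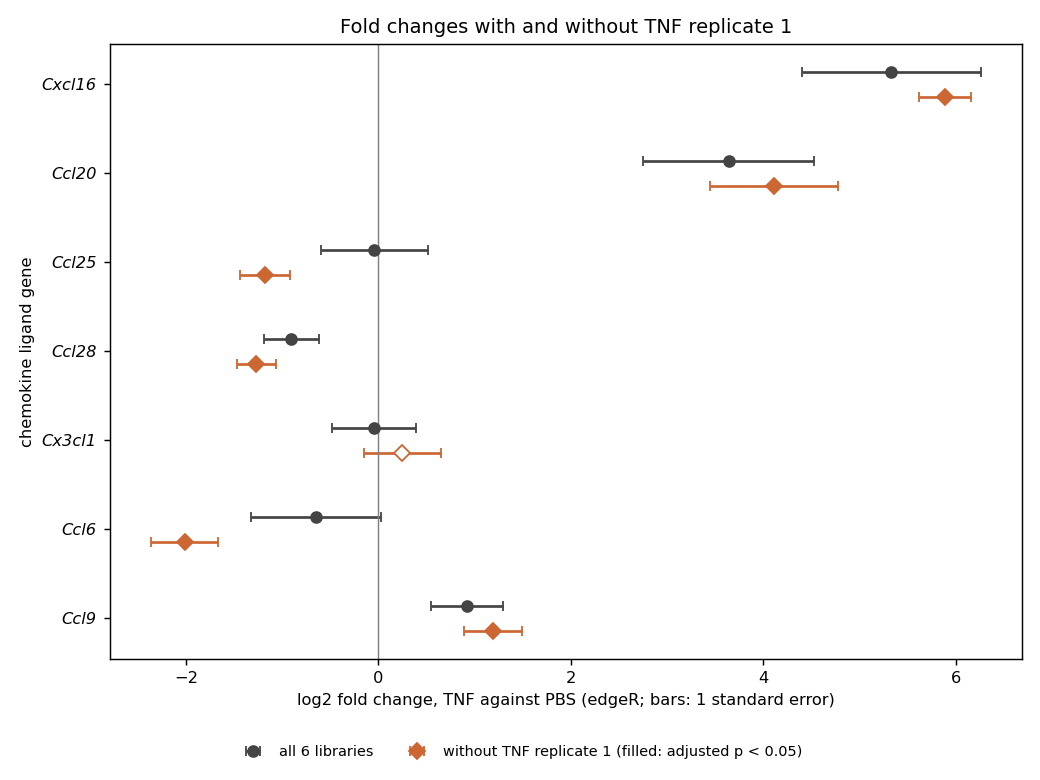
The edgeR log2 fold change of TNF against PBS with bars of 1 SE, for 7 chemokine ligands that passed the low-count filter, from all 6 libraries (circles) and without TNF replicate 1 (diamonds, filled where the adjusted p was under 0.05). Genes that passed the filter only through TNF libraries are left out, as is Ccl27a. Leaving out TNF replicate 1 moves Ccl25 from -0.04 to -1.18 and Ccl6 from -0.65 to -2.01.

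Levels were next compared between genes per length, as CPM per kb of the representative transcript. In PBS, Ccl25 was at 35.0 ± 7.22 CPM per kb and Ccl28 at 9.11 ± 0.275, with no overlap between them. They were followed by Cx3cl1 (1.43 ± 0.532), Ccl20 (0.667 ± 0.513) and Cxcl16 (0.368 ± 0.0867), whose ranges overlapped from one to the next, and by Cxcl9 (0.0503) and Cxcl10 (0.0444). In TNF the order by mean CPM per kb was Ccl25 (34.1 ± 32.7), Cxcl16 (14.9 ± 12.2), Ccl20 (8.46 ± 7.10), Ccl28 (4.88 ± 1.99), Cxcl2 (1.69 ± 2.05), Cxcl1 (1.502 ± 1.12), Cx3cl1 (1.38 ± 0.507), Cxcl9 (0.682 ± 0.760) and Cxcl10 (0.293 ± 0.443), and the ranges of all neighbours overlapped. Within TNF replicates 2 and 3 the level of Cxcl16, at 18.8 and 24.7 CPM per kb, lay above that of Ccl25, at 12.4 and 18.3. The place of Ccl25 depended on the length used, since with the union of all its annotated exons it was at 2.52 CPM per kb in PBS, below Ccl28 at 6.86. With that length its mean in TNF was 2.45, below Cxcl16 at 8.71, Ccl20 at 4.77 and Ccl28 at 3.67.

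The 10 genes were a small share of the chemokine RNA of PCs. Over 38 ligands, of which 21 were detected and 17 had 0 counts in all libraries, Ccl6 and Ccl9 held 97.8% ± 0.466 of ligand counts (SD, n = 3) in PBS and 95.7% ± 1.94 in TNF. Both encode CC chemokines that act on CCR1. The 10 genes made up 1.90%, 2.66% and 1.77% of ligand counts in PBS and 2.09%, 5.75% and 4.43% in TNF (exact permutation p = 0.2, adjusted 0.35 over 7 shares). The share of Cxcl16 was above its PBS range in every TNF library, at 1.94% ± 1.65 against 0.0326% ± 0.0114 (exact permutation p = 0.1, adjusted 0.35). Ligand counts were in total 0.209% to 0.438% of a library, and the 95% Wilson intervals of these shares were at most 0.974 percentage points wide.

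Ccl6 and Ccl9 differed in direction. Ccl6 was at 2812, 2259 and 3149 CPM in PBS, against 3898, 462 and 878 CPM in TNF, and its edgeR log2 fold change of -0.65 with an SE of 0.68 (adjusted p 0.737) became -2.01 (adjusted p 0.00325, with 0.00325 to 0.987 over the alternatives) without TNF replicate 1. Ccl9 was at 628, 577 and 872 CPM in PBS, against 804, 1172 and 1951 CPM in TNF, and its edgeR log2 fold change of 0.92 with an SE of 0.38 (adjusted p 0.375) became 1.19 (adjusted p 0.0221, with 0.0221 to 0.920 over the alternatives). Ccl6 thus had the pattern of Ccl25, with TNF replicate 1 the highest library, and held 80.2%, 77.5% and 76.9% of ligand counts in PBS and 81.1%, 26.6% and 29.6% in TNF replicates 1 to 3. Of the other 28 ligands, 12 were detected and 3 were tested. The third was Ccl27a, a CCR10 ligand like Ccl28, whose CPM of 0.799 to 2.20 in PBS and 0.563 to 0.849 in TNF did not reach the threshold (edgeR log2 fold change -1.12 with an SE of 0.69, adjusted p 0.534).

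**Figure D4:**
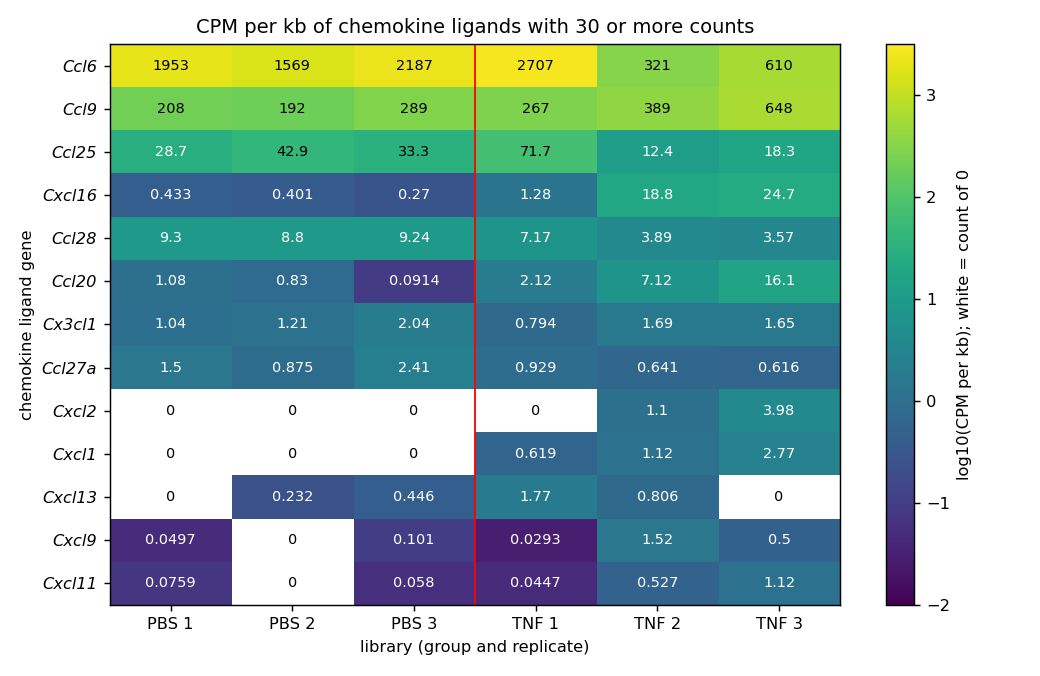
Level of the 13 chemokine ligands with 30 or more counts over the 6 libraries, in CPM per kb of the representative transcript (numbers, with colour on a log10 scale and white for a count of 0). Rows are ordered by mean level and a line divides PBS from TNF. Ccl6 and Ccl9 are the top rows in every library, and Cxcl16 is between 0.270 and 0.433 in PBS and at 1.28, 18.8 and 24.7 in TNF replicates 1 to 3.

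Most receptors of these ligands had no counts in the sorted cells. Of 23 chemokine receptors, 12 had 0 counts in all libraries, among them Cxcr6, Cxcr3, Cxcr2, Ccr6, Ccr10, Ccr3 and Cx3cr1, the receptors of Cxcl16, Cxcl9 and Cxcl10, the CXCR2 ligands, Ccl20, Ccl28 and Cx3cl1. Ccr9, the receptor of Ccl25, had 5 counts in TNF replicate 2 and 0 elsewhere. The 4 receptors tested were Ackr4, a scavenger of CCL25 and other ligands (log2 fold change -0.66, edgeR adjusted p 0.550), Cxcr4 (0.81, edgeR adjusted p 0.610), Ccrl2 (-0.37, edgeR adjusted p 0.723) and Ackr1 (1.16, edgeR adjusted p 0.712). Ackr4 was the highest of them at 8.93, 23.4 and 22.6 CPM in PBS, against 7.13, 16.9 and 10.5 CPM in TNF, which overlapped.

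Genes that act on chemokines after translation had log2 fold changes of both signs. Of 10 listed genes for shedding, cleavage and binding to heparan sulfate, 9 were tested, with a median of -0.08, and 1 was higher at an unadjusted edgeR p under 0.05, against 8.25% of all genes. This was Sdc1, a heparan sulfate proteoglycan, with 27.9, 26.4 and 29.4 CPM in PBS, against 26.6, 62.6 and 54.2 CPM in TNF (log2 fold change 0.78, edgeR adjusted p 0.351). The most abundant genes, Sdc4 and the heparan sulfate sulfotransferase gene Ndst1, had log2 fold changes of 0.01 and -0.13. Ext1, a heparan sulfate polymerase gene, and Rhbdf2, which carries ADAM17 to the cell surface, had the next smallest p-values (log2 fold changes -0.48 and 0.40, edgeR adjusted p 0.447 and 0.632). Adam10, the protease that sheds CXCL16 and CX3CL1, was at 65.0 to 72.7 CPM in PBS and 59.0 to 74.7 CPM in TNF. Without TNF replicate 1, 1 of the 9 genes passed 5% as higher and 1 as lower, against 9.1% and 5.4% of all genes. These were Sdc1 (log2 fold change 1.09, edgeR adjusted p 0.00298) and Dpp4 (-1.89, edgeR adjusted p 0.00145). Dpp4 was at 19.9, 24.8 and 21.8 CPM in PBS, against 36.7, 7.37 and 4.26 CPM in TNF.

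In the pathway from TNF receptors to NF-kB, 19 of 22 genes had a positive log2 fold change and the median was 0.51, against -0.00 over all tested genes. At an unadjusted edgeR p under 0.05, 8 were higher and 2 lower, against 8.25% and 4.0% of all genes. These were 5 and 2, against 540 and 731 of 13026 genes, when libraries were scaled by size alone, which moved the median of all genes to -0.11. Without TNF replicate 1, 10 passed 5% as higher and 2 as lower, against 9.1% and 5.4% of all genes. The inhibitor gene Nfkbia, the most abundant, was at 50.1, 33.0 and 33.2 CPM in PBS, against 43.0, 60.1 and 104 CPM in TNF (log2 fold change 0.83, edgeR adjusted p 0.368). The TNF receptor gene Tnfrsf1a had a log2 fold change of 0.11 (edgeR adjusted p 0.913). The smallest p-values belonged to Bcl3, a nuclear IkB protein gene (log2 fold change -1.90), Relb, a subunit of NF-kB (1.74), and Tnfaip3, the gene of the feedback inhibitor A20 (1.45), with edgeR adjusted p-values of 0.270 to 0.278. Relb was at 6.48, 6.33 and 6.16 CPM in PBS, against 8.23, 28.2 and 27.0 CPM in TNF.

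In the interferon pathway 17 genes were tested, of which 3 were higher and 2 lower at an unadjusted edgeR p under 0.05 (8.25% and 4.0% of all genes), with a median log2 fold change of 0.24. Ifngr2 and Ifngr1, the receptor chains for interferon-gamma, had the smallest p-values (log2 fold changes 2.00 and 1.07, edgeR adjusted p 0.270 for both). Ifngr2 was at 32.2, 23.5 and 31.0 CPM in PBS, against 37.8, 162 and 148 CPM in TNF, and the groups did not overlap. Socs3, a feedback inhibitor, followed with -1.30 (edgeR adjusted p 0.329), and the most abundant genes Jak1 and Stat3 had 0.24 and -0.19. Without TNF replicate 1, 5 genes passed 5% as higher and 0 as lower, against 9.1% and 5.4% of all genes. The 8 genes of the IL-17 and IL-22 pathway, of which IL-17 is known to induce CCL20 and CXCR2 ligands in epithelium, had a median of -0.00, with 1 of 8 higher at an unadjusted p under 0.05, against 8.25% of all genes (Cebpb, log2 fold change 0.83, edgeR adjusted p 0.398). Their most abundant genes Il22ra1 and Traf3ip2 had log2 fold changes of -0.37 and -0.25, and Cebpd had -0.46.

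By library, the NF-kB and interferon lists set TNF replicate 1 apart from TNF replicates 2 and 3, and the other pathway lists did not. The median log2 CPM of the NF-kB list relative to the mean of PBS was -0.20 in TNF replicate 1 and 0.74 and 0.68 in TNF replicates 2 and 3, and that of the interferon list was -0.32, 0.53 and 0.51. The IL-17 and IL-22 list was at -0.14, -0.47 and 0.14, and the chemokine processing list at -0.20, 0.14 and -0.20. Cxcl16 on the same scale was at 1.70, 5.53 and 5.92, and Ccl20 at 1.73, 3.40 and 4.56. TNF replicate 1 was therefore above PBS for these chemokines while all 4 list medians were below the PBS mean there. Single genes could differ from their list. All TNF libraries, replicate 1 included, lay above all PBS libraries for 4 of 22 NF-kB and 3 of 17 interferon genes. They lay below all PBS libraries for 3 and 2 of these, against 9.07% higher and 7.82% lower of all genes.

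**Figure D5:**
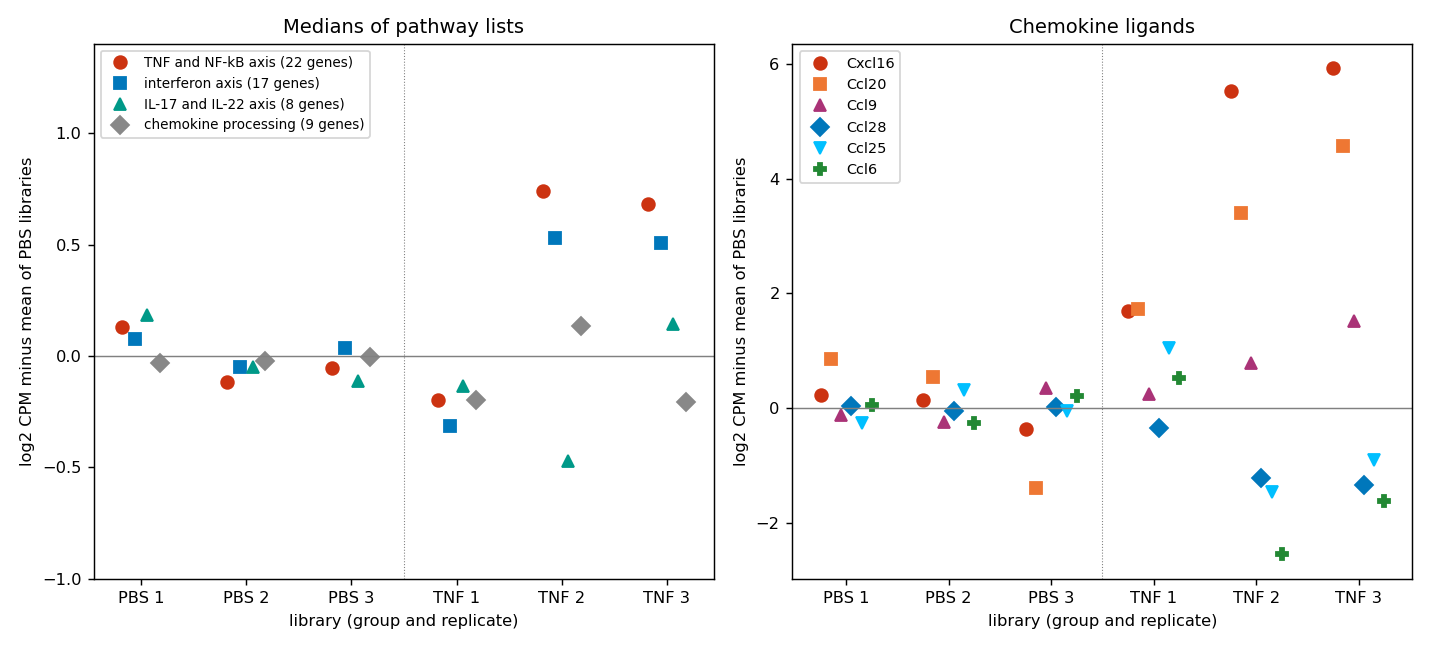
Log2 CPM relative to the mean of the 3 PBS libraries, per library. The left panel gives medians of the 4 pathway lists and the right panel 6 chemokine ligands, with symbols set side by side within a library. The NF-kB and interferon medians are above 0.5 in TNF replicates 2 and 3 only, whereas Cxcl16 and Ccl20 are above 1.6 in all 3 TNF libraries.

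The genes most like Cxcl16 over the 6 libraries were Cib1, Ubxn1, S100a10, Cgnl1 and Dstn, with Pearson correlations of log2 CPM of 0.996 to 0.998 among 9767 genes searched. S100a10, a partner of annexin A2, was at 34.6 to 38.5 CPM in PBS, against 58.3, 221 and 291 CPM in TNF replicates 1 to 3, and Dstn, an actin-severing protein gene, at 291 to 294 CPM in PBS, against 417, 1023 and 987 CPM in TNF. The genes most like Ccl25, the tested chemokine gene of the 10 with the highest mean CPM, were Zfp146, Yes1, Srfbp1, Ckap2 and Hibch, at 0.990 to 0.999. Yes1, a Src-family kinase gene, was at 57.9 to 76.6 CPM in PBS, against 99.8, 30.9 and 41.7 CPM in TNF. These correlations rest on 6 points that share the split between TNF replicate 1 and the other TNF libraries, and they are descriptions.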

How the data were processed

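RNA from sorted PCs of 6 mice had been sequenced with single-end reads. The submitters' processing notes name FastQC, Trimmomatic 0.39, STAR 2.7.10a, DESeq2 and mm39, and the sources used here do not name the counting tool or its use of strand. The deposited values were whole-number counts per Ensembl gene, as the authors made them, with no normalization and 0 unused columns. Of 55414 identifiers, 54749 matched GENCODE vM39 (GRCm39), and the others held 0.0193% of counts.

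Groups came from the labels. Genes were filtered with filterByExpr (minimum count 10, minimum total 15), scaled by TMM and tested with the two-sided edgeR 4.0.16 quasi-likelihood test (R 4.3.3), with Benjamini-Hochberg adjustment over all genes tested and a threshold of 5%. SE was taken as log2 fold change over the square root of the F statistic. Genes with too few counts were compared by exact permutation tests. The scripts were tested on simulated data. Alternatives used DESeq2 1.42.0, limma 3.58.1, other scalings and filters, a replicate block, and each library left out. The exon-union length was added after seeing the data.

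The chemokine genes, pathway lists and markers were chosen with earlier results of these data known. Named were the 10 genes, every other tested chemokine ligand and receptor, the 2 most abundant genes and 3 smallest p-values of each pathway list, and the 5 genes most correlated with Cxcl16 and with Ccl25, searched where average log2 CPM reached 2 (prior count 2). Genes named outside this rule (Adam10, Dpp4, ligands and receptors below the filter, single markers) were chosen after their values were seen. Mice were biological replicates per the labels. Some single list members and 1 motif search are not reported here.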

Additional observations from a re-analysis of the deposited data

How the results depend on the processing

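With all 6 libraries and edgeR, 0 of the 10 chemokine genes and 0 of all genes passed 5%, with 3 of the 10 and 1596 of all genes at an unadjusted p under 0.05. The first pair of counts was 2 and 242 with DESeq2, 3 and 1501 with limma-voom with sample weights, and 6 and 690 with no low-count filter, and stayed at 0 with the other scalings, limma-voom, a mean CPM of at least 5 or an adjusted p under 0.1. Leaving out 1 library gave 0 to 7 chemokine genes and 0 to 1980 genes past 5%, with every call coming from the fit without TNF replicate 1. Of its 7 chemokine genes, 3 (Cxcl1, Cxcl2 and Cxcl9) entered only through TNF replicates 2 and 3. At an unadjusted p under 0.05 the chemokine genes numbered 2 of 5 tested with limma-voom, 2 of 3 with a mean CPM of at least 5 and 4 of 5 with sample weights. They numbered 6 with no low-count filter and 3 to 7 when 1 library was left out. Up to 8 were tested there, because the filter then admitted genes through TNF libraries alone. They were 7 without TNF replicate 1, 5 without PBS replicate 1 or 2, and 6 without PBS replicate 3. Of all genes at that threshold, 2194 were higher and 1689 lower of 13660 without TNF replicate 1. These were 1397 and 1078 of 23434 with no low-count filter. Of 13026 genes, they were 2102 and 1850 with sample weights, and 876 and 794 with limma-voom. For a mean CPM of at least 5 and the fits without another library, the share of all genes is not given here. Their counts are therefore not read as a result about the chemokines. The other ligands, 1 in the main comparison, numbered 0 with library size alone, 2 with sample weights and 2 with no filter. With 1 library left out they numbered 0 to 3 (0 without PBS replicate 2 or TNF replicate 3, 3 without TNF replicate 1 and 2 without PBS replicate 3). The counts with no filter and without TNF replicate 1, PBS replicate 1 or PBS replicate 3 include Cxcl11. Cxcl11 entered the fits with 1 library left out through TNF libraries only, so those counts say little beyond the filter. The receptors, 0 in the main comparison, numbered 1 with sample weights, 1 with no filter and 0 to 1 with 1 library left out (1 without PBS replicate 1 or TNF replicate 2), in each case Ackr4. The log2 fold change of Ccl25 lay between -1.18 and 0.33 over the fits with 1 library left out, positive in the absence of PBS replicate 2 (0.13) or of TNF replicates 2 (0.33) or 3 (0.26). That of Cx3cl1 lay between -0.26 and 0.25, positive in the absence of PBS replicate 3 (0.25) or TNF replicate 1 (0.25), and was 0.0055 with limma-voom. The cause of these moves was not tested. Over the 5 tested chemokine genes, 55 alternative values kept direction and side of the threshold, 12 newly passed it and 6 turned sign. Same-numbered PBS and TNF libraries did not deviate together (correlations over genes of -0.01, -0.07 and 0.03), so the numbers were not taken as pairs, and the replicate block gave 0 chemokine genes past 5%, 3 at an unadjusted p under 0.05 and 1 receptor. With 3 libraries per group and 0 to 90 counts for Cxcl1, Cxcl2, Cxcl9 and Cxcl10, small differences in these genes could not be seen.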

Other observations

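Outside the 10 genes, 2 further ligands had 30 or more counts but were not tested over all libraries. Cxcl11, which like Cxcl9 and Cxcl10 binds CXCR3, had 4, 0 and 3 counts in PBS and 2, 41 and 53 counts in TNF, so that TNF replicate 1 was within the PBS range. Fits with 1 library left out that included Cxcl11 did so through TNF libraries only, and no p-value is given. Art3, which overlaps Cxcl11 and Cxcl10 on the opposite strand, had 0 counts in all libraries. Cxcl13, the attractant of B cells, had 0, 4 and 7 counts in PBS and 24, 19 and 0 counts in TNF, with TNF replicate 1 the highest library and TNF replicate 3 at 0. Cxcl11 and Cxcl13 therefore had different orders of the TNF libraries. Both were chosen after their values were seen.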
